A study of Mus musculus with 13 samples.

Results

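The Fc receptors for immunoglobulin G and their shared signalling chain were followed across the resident cells of the mouse liver. The group was defined by name and holds 6 genes: the receptor genes Fcgr1, Fcgr2b, Fcgr3 and Fcgr4, the common gamma chain gene Fcer1g, and Fcgrt, which encodes the neonatal Fc receptor, FcRn. A probe set carrying the symbol alone was found for 5 of the 6 genes, among 19537 genes with such a probe set, and each of the 5 had 1 probe set. Fcgrt was not analysed here. RNA came from liver cells of naive C57BL/6 mice aged 6 to 10 weeks, and no group carried a transgene or a treatment. Kupffer cells, the resident macrophages of the liver, had 3 arrays, liver sinusoidal endothelial cells (LSEC), which line its capillaries, had 3, and hepatocytes, the parenchymal cells, had 3, all freshly sorted. Hepatic stellate cells (HSC), pericytes of the sinusoids that turn into myofibroblasts on plastic, were kept in DMEM with 10% FBS; 2 arrays were taken after 1 day and a single array each after 7 and 14 days. Since every HSC array came from culture and every other array from fresh cells, population and culture cannot be told apart in a comparison that sets HSC against another cell type. Arrays of 1 group are titled as biological replicates (day 7 and day 14 HSC are not), but no source used here states whether each came from its own animal, so the p-values measure a spread between arrays that may be partly technical.

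Fc gamma receptors bind the constant part of immunoglobulin G and so couple antibody-coated particles and soluble immune complexes to uptake and signalling. In mice the products of Fcgr1, Fcgr3 and Fcgr4 are activating receptors that have no long signalling tail of their own and pair with the gamma chain encoded by Fcer1g, whose immunoreceptor tyrosine-based activation motif (ITAM) recruits the kinase Syk. The product of Fcgr2b is the inhibitory receptor, which carries an inhibitory motif (ITIM) in its own tail, recruits the lipid phosphatase encoded by Inpp5d and needs no gamma chain. In the liver, Kupffer cells are known for phagocytosis of opsonised particles, and LSEC are known to carry Fcgr2b protein and to clear small immune complexes through it. FcRn is a different kind of molecule, related to class I histocompatibility proteins, which pairs with beta-2 microglobulin and returns immunoglobulin G and albumin from endosomes to the blood.

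The promoter stretches of the 5 measured genes are shown because 4 of these genes share a Kupffer pattern and 1 has an LSEC pattern in the results that follow. Each is the 120 bases just before the annotated start, 5′ to 3′ on the gene's own strand, from RefSeq on GRCm38.p6. Capitals mark the core of the site known for the macrophage and B cell factor PU.1, GAGGAA, here read on the opposite strand as TTCCTC.
Fcgr1, chr3:96293970-96294089, minus strand: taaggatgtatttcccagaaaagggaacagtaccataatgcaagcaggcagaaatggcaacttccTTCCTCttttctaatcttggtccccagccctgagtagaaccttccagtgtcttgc
Fcgr3, chr1:171059404-171059523, minus strand: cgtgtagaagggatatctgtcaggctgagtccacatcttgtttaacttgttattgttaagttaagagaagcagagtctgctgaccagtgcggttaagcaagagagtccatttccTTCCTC
Fcgr4, chr1:171018806-171018925, plus strand: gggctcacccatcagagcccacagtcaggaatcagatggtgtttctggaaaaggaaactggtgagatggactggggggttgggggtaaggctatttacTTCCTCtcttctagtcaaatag
Fcer1g, chr1:171234350-171234469, minus strand: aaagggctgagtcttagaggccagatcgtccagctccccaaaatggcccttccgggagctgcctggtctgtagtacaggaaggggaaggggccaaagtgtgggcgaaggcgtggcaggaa
Fcgr2b, chr1:170976072-170976191, minus strand: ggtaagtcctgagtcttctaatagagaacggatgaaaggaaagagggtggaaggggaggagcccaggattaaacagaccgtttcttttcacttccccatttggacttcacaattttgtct
The core was found, on either strand, in the 300-base windows (250 bases before and 50 after the start) of Fcgr1, Fcgr3 and Fcgr4. It lay at bases -55 to -50 of Fcgr1, -6 to -1 of Fcgr3 and -22 to -17 of Fcgr4. A second annotated start of Fcgr3 put the same match at -15 to -10. Of all 32851 promoter windows, 28.3% held the core, and those of Fcer1g and Fcgr2b did not. Fcgr2b instead held a match to the composite ETS-IRF motif (GGAA and GAAA with any 2 bases between them), at -35 to -26 on the opposite strand, which 2.72% of windows held and none of the other 4 genes did. The motif overlaps the PU.1 core in its GGAA letters. No window of the 5 genes held TATAAA (13.6% of windows), the GATA motif GATAAG (7.44%) or the GC box GGGCGG (35.7%) on either strand. Over the whole windows, pairs of these promoters aligned at 46.3% to 50.8% identity. A match is a description of the letters and not a bound site.

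Expression values are probe-set intensities on a linear scale, and errors are SD. A probe set's level is not comparable with that of another, so within-array ratios are read only by their difference between populations. Array medians lay between 216.5 and 232.9, and the median over all values was 224.5. Differences were tested on log2(intensity + 82.7) with limma across all 12081 genes of the population comparison and 12368 of the culture comparison. A gene was called where the Benjamini-Hochberg adjusted p was below 0.05 and the log2 difference at least 1 in size. The table came without detection calls, and the added constant understates folds against low values. Fcgr2b, Fcgr3 and Fcer1g exceeded the pooled median in several groups, whereas Fcgr1 and Fcgr4 did so on 3 of 13 arrays each, all of them Kupffer arrays, and so passed the low-value filter through those arrays alone. Each sorted population carried its own markers. The summed intensity of 10 Kupffer markers was 77888 to 81995 on Kupffer arrays and 1429 to 4607 on all others. That of 10 LSEC markers was 43239 to 62096 on LSEC arrays and 14481 to 16857 or less elsewhere. Single genes made up most of some of the lower sums. The LSEC marker Cdh5 read 10040, 9723 and 9141 on Kupffer arrays, and the Kupffer marker C6 read 1998, 3271 and 2633 on hepatocyte arrays. The sum of 10 hepatocyte markers was 125458 to 131304 on hepatocyte arrays and at most 17547 elsewhere. LSEC replicate 3 read lower than LSEC replicates 1 and 2 in every LSEC marker but Cdh5. Gpr182 read 923.7 there against 3981 and 2748, and Kdr 1422 against 3747 and 3519. Clec4g read 943.5 on that array, below the 1504 and 1039 of Kupffer replicates 1 and 2. No marker in any list was listed at 0.

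The activating receptor genes were each highest on the Kupffer arrays. Fcgr1 and Fcgr4 were below the pooled median on every other array, whereas Fcgr3 was above it on all 4 HSC arrays and on 1 hepatocyte array. Fcgr4, whose product binds a subset of mouse immunoglobulin G subclasses with intermediate affinity, had intensities of 6958, 6037 and 7028 on the Kupffer arrays, against 85.40, 83.34 and 60.80 on the LSEC arrays, 117.6 and 142.8 in HSC at day 1, and 97.60, 99.29 and 127.5 on the hepatocyte arrays. All 3 Kupffer arrays lay far above the other 10 arrays. The log2 difference of Kupffer cells from LSEC was 5.41 (SE 0.0995, n = 3 each). It was 4.99 from day 1 HSC and 5.15 from hepatocytes. Because Fcgr4 passed the low-value filter through the Kupffer arrays, its p-values in these comparisons are those of the fit of all 19537 genes without that filter: 6.0e-11, 3.8e-10 and 6.8e-11 after adjustment. The LSEC mean of 76.51 ± 13.6 lies below the constant added before taking logs, so no fold is given.

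Fcgr1 encodes the high-affinity receptor, which can bind single immunoglobulin G molecules. Its intensities were 2793, 2406 and 2292 on the Kupffer arrays, against 127.8, 128.1 and 106.5 on the LSEC arrays, 171.6 and 171.9 in HSC at day 1, and 112.4, 101.8 and 109.5 on the hepatocyte arrays. On Kupffer arrays these values stood at the 92.8 to 94.1 percentile of all probe sets, and on the other arrays at the 24.0 to 42.3 percentile. Kupffer cells were higher than LSEC by 3.66 on the log2 scale (SE 0.0855, n = 3 each), with an adjusted p of 1.4e-10 in the fit without the filter, through which Fcgr1 too had passed by its Kupffer arrays. In that fit the differences from day 1 HSC and from hepatocytes were 3.34 (adjusted p = 8.7e-10) and 3.75 (adjusted p = 1.1e-10).

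Fcgr3, which encodes a low-affinity receptor for immune complexes, had intensities of 3321, 3883 and 3434 on the Kupffer arrays. The LSEC arrays read 183.0, 147.2 and 151.9, the day 1 HSC arrays 306.1 and 360.6, and the hepatocyte arrays 167.6, 136.5 and 239.7. The Kupffer arrays again lay above all others without overlap, while the LSEC and hepatocyte values overlapped. The log2 difference was 3.90 from LSEC (SE 0.130, adjusted p = 6.2e-11), 3.12 from day 1 HSC (adjusted p = 1.7e-09) and 3.80 from hepatocytes (adjusted p = 5.3e-11). Fcgr3 and Fcgr2b are close relatives in their extracellular part, and no source used here gives the positions of the probes. On LSEC arrays the Fcgr3 probe set averaged 160.7 and that of Fcgr2b 8734. On Kupffer arrays the Fcgr3 probe set averaged 3546 and that of Fcgr2b 754.7. Cross-hybridisation between the probe sets was not tested in either direction.

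Fcer1g, the gamma chain gene, was the highest in Kupffer cells as well but was not confined to them. Its intensities were 10933, 11190 and 10617 on the Kupffer arrays, 2518, 2353 and 2290 on the LSEC arrays, 1352 and 1622 in HSC at day 1, and 357.1, 254.0 and 502.3 on the hepatocyte arrays. The 4 groups did not overlap and fell in the order Kupffer, LSEC, day 1 HSC and hepatocytes. Kupffer cells were higher than LSEC by 2.16 (SE 0.155, adjusted p = 1.1e-07), a ratio of mean intensities of 4.57, than day 1 HSC by 2.81 (adjusted p = 2.5e-08) and than hepatocytes by 4.63 (adjusted p = 4.6e-11). LSEC exceeded hepatocytes by 2.48 (SE 0.155, adjusted p = 2.5e-08; ratio of means 6.43), and day 1 HSC exceeded hepatocytes by 1.82 (SE 0.174, adjusted p = 1.6e-06). The difference between LSEC and day 1 HSC was 0.66 (95% confidence interval 0.28 to 1.04, adjusted p = 0.0079), below the size asked for a call.

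**Figure D1:**
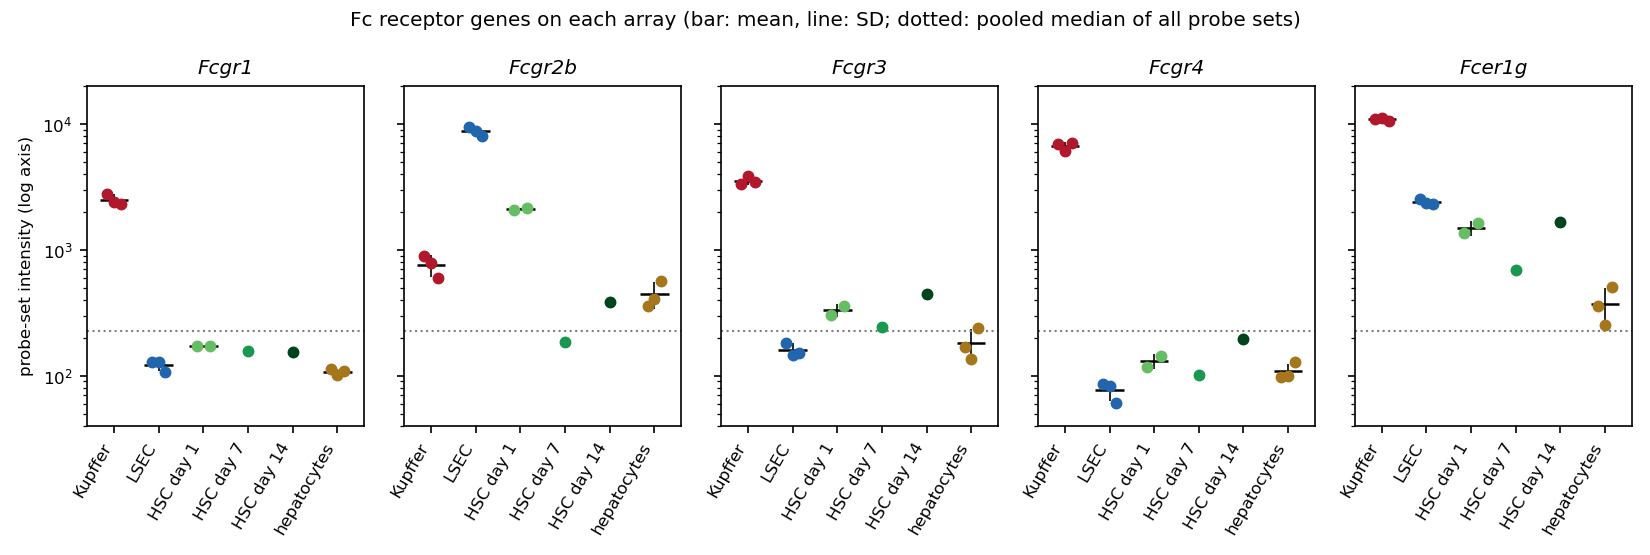
Intensity of each measured Fc receptor gene on every array (points, log axis) for Kupffer cells, LSEC, HSC at 3 culture days and hepatocytes, with the mean and SD where a group has more than 1 array and the pooled median of 224.5 dotted. Fcgr1, Fcgr3, Fcgr4 and Fcer1g are highest on the 3 Kupffer arrays and Fcgr2b on the 3 LSEC arrays, where it reads 8029 to 9412.

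The inhibitory receptor gene had the opposite arrangement. Fcgr2b read 9412, 8762 and 8029 on the LSEC arrays, at the 98.9 to 99.2 percentile of all probe sets, 887.7, 783.1 and 593.2 on the Kupffer arrays, 2066 and 2132 in HSC at day 1, and 359.8, 407.9 and 569.6 on the hepatocyte arrays. The LSEC arrays lay above all others, the day 1 HSC arrays came next, and each Kupffer array lay above each hepatocyte array by a narrow margin. Kupffer cells were lower than LSEC by a log2 difference of -3.41 (SE 0.151, adjusted p = 9.6e-10, n = 3 each), with means of 754.7 ± 149 in Kupffer cells and 8734 ± 692 in LSEC. Kupffer cells were also lower than day 1 HSC, by -1.40 (SE 0.169, adjusted p = 1.2e-05). The difference between Kupffer cells and hepatocytes was 0.67 (95% confidence interval 0.34 to 1.00, adjusted p = 0.0017) and was not called.

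LSEC exceeded hepatocytes in Fcgr2b by 4.08 on the log2 scale (SE 0.151, adjusted p = 2.0e-10), a ratio of mean intensities of 19.6. LSEC exceeded day 1 HSC by 2.01 (SE 0.169, adjusted p = 1.3e-06), and day 1 HSC exceeded hepatocytes by 2.07 (SE 0.169, adjusted p = 4.0e-07). In order of level, Fcgr2b thus ran from LSEC through day 1 HSC and Kupffer cells to hepatocytes, with the last pair not apart by the size asked for. For Fcgr1, Fcgr3 and Fcgr4, by contrast, none of the pairs among LSEC, day 1 HSC and hepatocytes differed by the size of a call. The differences closest to it were those of Fcgr3, at -0.77 for LSEC minus day 1 HSC (adjusted p = 8.8e-04) and 0.67 for day 1 HSC minus hepatocytes (adjusted p = 0.0013).

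**Figure D2:**
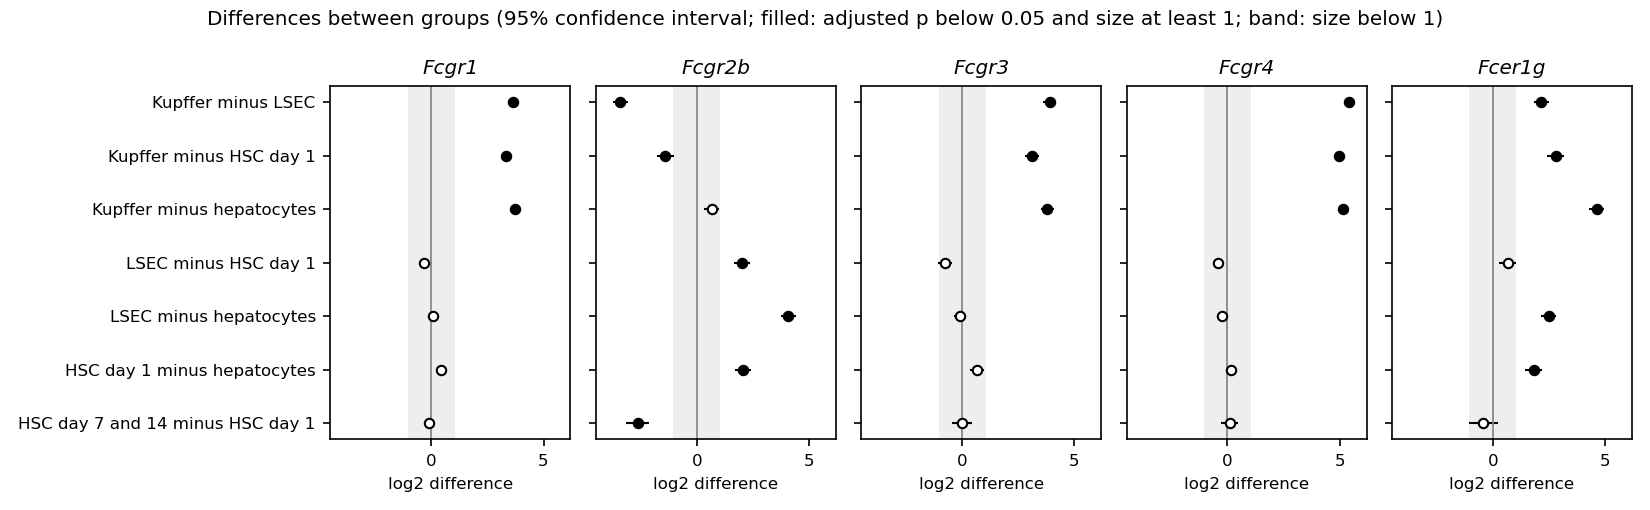
Log2 difference (horizontal axis) of each gene in the 6 population comparisons and in HSC culture, with 95% confidence intervals, filled where called. The first row shows Fcgr2b at -3.41 and the other 4 genes between 2.16 and 5.41 for Kupffer minus LSEC.

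For Kupffer cells against LSEC, 4 of the 5 measured genes were called higher and 1 lower, where 9.54% of all genes tested were called higher and 10.3% lower. Against day 1 HSC the same counts, 4 higher and 1 lower, stood beside 11.7% and 12.9% of all genes. Against hepatocytes 4 were higher and 0 lower, beside 13.7% and 12.0%. LSEC were higher than day 1 HSC in 1 gene, Fcgr2b, and lower in 0, beside 5.24% and 5.61% of all genes. LSEC exceeded hepatocytes in 2, Fcgr2b and Fcer1g, and were lower in 0, beside 12.5% and 10.0%, and day 1 HSC exceeded hepatocytes in the same 2 and were lower in 0, beside 12.3% and 10.1%. Genes higher in Kupffer cells than in each of the other 3 populations made up 6.53% of all tested and included Fcgr1, Fcgr3, Fcgr4 and Fcer1g. Those higher in LSEC than in each of the others made up 2.35% and included Fcgr2b, and those lower in hepatocytes than in each of the others made up 2.72% and included Fcer1g. Fcgr1 and Fcgr4 could enter these counts through their Kupffer values alone, so the counts are descriptions of the family.

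The balance of the inhibitory to each activating component was described in LSEC and Kupffer cells as a log2 ratio within each array. The same constant as in the tests was added to each intensity before taking logs. The ratio of Fcgr2b to Fcgr4 averaged 5.79 ± 0.05 in LSEC and -3.03 ± 0.32 in Kupffer cells (SD, n = 3 each), a difference of 8.82. For Fcgr3 it averaged 5.18 ± 0.08 in LSEC and -2.13 ± 0.29 in Kupffer cells, a difference of 7.31. For Fcgr1 it averaged 5.44 ± 0.05 in LSEC and -1.63 ± 0.16 in Kupffer cells, a difference of 7.07. The gamma chain gave the smallest difference, 5.56, from 1.83 ± 0.05 in LSEC and -3.73 ± 0.24 in Kupffer cells. All 3 LSEC arrays lay above all 3 Kupffer arrays in each of the 4 ratios. The two-sided exact permutation p was 0.10 for each, the smallest that 3 against 3 arrays allow, and 0.10 after adjustment over the 4 ratios. Each ratio difference only adds up the sizes of the Kupffer minus LSEC differences of its 2 genes, given above. Fcgr2b was higher on every LSEC array and the other gene of each ratio on every Kupffer array. The separation and the p-value follow from this and add no evidence. A ratio of 2 probe sets has no meaning as a level, so only its difference between populations is interpretable. Fcgr1 and Fcgr4 passed the low-value filter through their Kupffer arrays alone. The LSEC mean of Fcgr4, 76.51, lies below the added constant, so the LSEC ratio of Fcgr2b to Fcgr4 and its difference depend on that constant.

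Bulk arrays do not tell fewer cells of a type from less RNA per cell, so levels on the lower groups were set beside markers of the higher ones. Fcgr2b on Kupffer arrays was 10.2%, 8.97% and 6.79% of its LSEC mean, while the median of the 10 LSEC markers on the same arrays was 12.2% to 13.8%, with single markers from 3.45% to 72.4%. In HSC at day 1 Fcgr2b was at 23.7% and 24.4% of its LSEC mean, where the LSEC markers had medians of 14.2% and 14.5% and single markers from 8.04% to 47.3%. Among the 284 genes higher in LSEC than in each other population, the median share on these arrays was 26.0% and 25.2%, and 169 and 146 of them had a higher share than Fcgr2b. LSEC marker signal was thus present on both sets of arrays beside Fcgr2b, and its part in the Fcgr2b values was not tested.

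Fcer1g on the LSEC arrays was at 23.1%, 21.6% and 21.0% of its Kupffer mean. There the 10 Kupffer markers had medians of 1.85%, 1.79% and 1.74% and none exceeded 11.6%. Fcgr4 was at 1.28%, 1.25% and 0.911%, Fcgr1 at 4.27% to 5.13% and Fcgr3 at 4.15% to 5.16% on these arrays. The Fcer1g share therefore lay above that of each Kupffer marker and each activating receptor on the same arrays. Among the 789 genes higher in Kupffer cells than in each other population it lay nearer the middle, since 279, 304 and 297 of them had a higher share on the 3 LSEC arrays. In HSC at day 1 Fcer1g stood at 12.4% and 14.9% of its Kupffer mean, where the Kupffer markers had medians of 3.68% and 3.65% and the highest of them reached 10.5%. Of the 789 genes, whose median shares there were 16.2% and 17.5%, 499 and 458 had a higher share than Fcer1g.

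**Figure D3:**
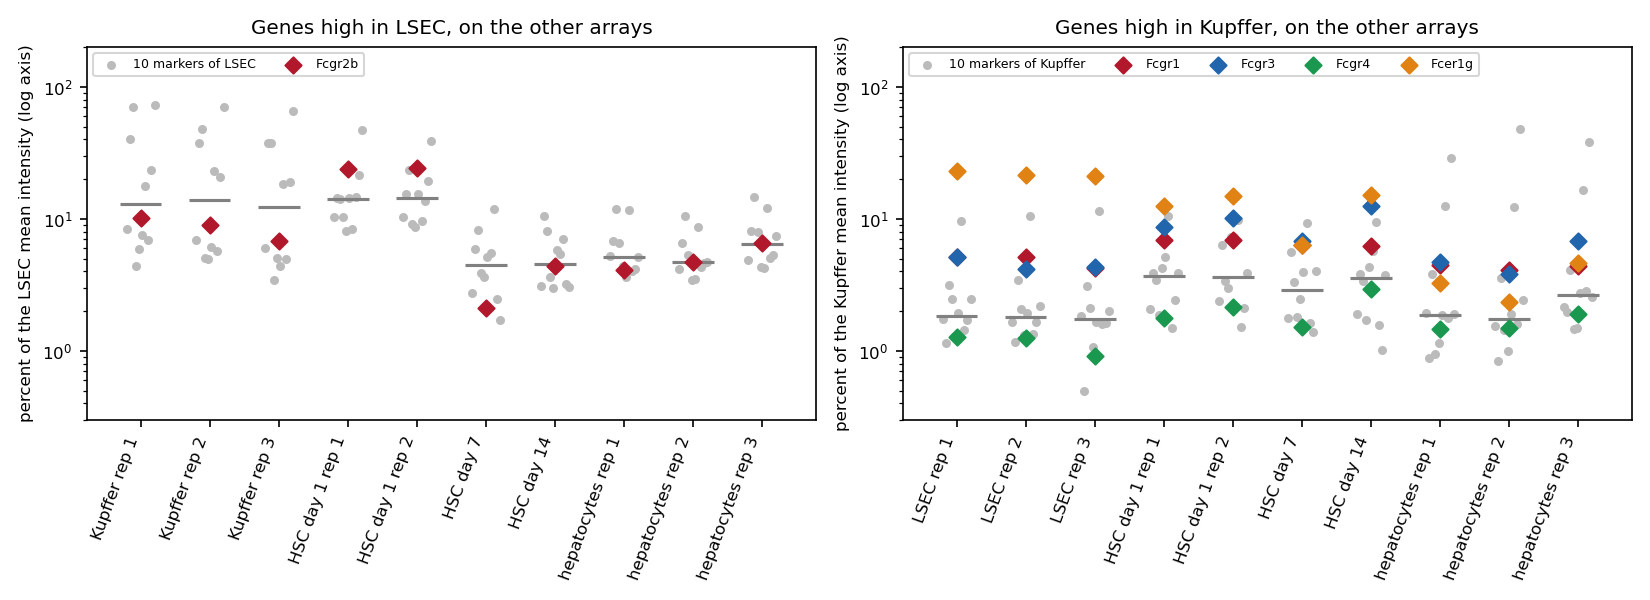
Left, Fcgr2b (diamonds) and 10 LSEC markers (grey, line at their median) as percent of the LSEC mean on each other array, and right, the other 4 genes and 10 Kupffer markers as percent of the Kupffer mean, both on log axes. Fcer1g lies above the Kupffer markers on the LSEC arrays, at 21.0% to 23.1%, and Fcgr2b lies at 23.7% and 24.4% on the day 1 HSC arrays and at 2.10% at day 7.

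Other cells that carry Fc gamma receptors were looked for by their markers. B cells are known for Fcgr2b, and 6 of their markers summed to 1624 to 2701 on Kupffer arrays and 531.8 to 601.1 on LSEC arrays, and 0 of the 6 exceeded the pooled median on every LSEC array. The sum of 7 neutrophil markers came to 1818 to 1932 on Kupffer arrays and 473.0 to 514.4 on LSEC arrays, and that of 7 dendritic cell markers to 3271 to 4273 on Kupffer arrays and 1332 to 1961 on LSEC arrays. The sum of 5 monocyte markers came to 1245 to 1996 on Kupffer arrays and 654.2 to 878.2 on LSEC arrays. These sums were higher on the Kupffer arrays, but each came mostly from 1 gene there. In the B cell list Cd79b read 1701, 954.0 and 1556, and in the neutrophil list Csf3r read 1492, 1392 and 1536. Beyond Cd79b, every gene of the B cell list read higher on each Kupffer array than on each LSEC array. Ms4a1 read 204.0, 118.8 and 123.1 on Kupffer arrays and 47.50, 50.40 and 38.96 on LSEC arrays. In the dendritic cell list Clec9a read 3066, 2797 and 2224, and in the monocyte list Plac8 read 1207, 1601 and 858.1. Fn1 of the monocyte list and Zbtb46 of the dendritic cell list were lower on the Kupffer than on the LSEC arrays. The sum of 8 T and NK cell markers came to 898.5 to 1126 on Kupffer arrays and 747.4 to 799.8 on LSEC arrays, and that of 4 platelet markers to 983.2 to 2351 on Kupffer arrays and 710.8 to 771.9 on LSEC arrays. The part of these cell types, B cells included, in the Fc receptor values was not tested. The sum of 7 mast cell and basophil markers came to 5594 to 6360 on LSEC arrays and 483.8 to 507.5 on Kupffer arrays. The LSEC sum came from Kit, which read 6010, 5275 and 5588 there, and Fcer1a, the mast cell partner of the gamma chain, averaged 26.27 in Kupffer cells and 22.11 in LSEC.

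Among the hepatocyte arrays 1 stood highest in most of these genes. Hepatocyte replicate 3 had the highest value of the 3 in Fcgr2b (569.6), Fcgr3 (239.7), Fcgr4 (127.5) and Fcer1g (502.3), and not in Fcgr1 (109.5, against 112.4 in replicate 1). The median share of the Kupffer markers was 2.66% on that array and 1.88% and 1.75% on replicates 1 and 2, and that of the LSEC markers was 6.39%, 5.18% and 4.67%. The part of these in the hepatocyte values was not tested.

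During HSC culture Fcgr2b fell, and the other 4 measured genes did not pass the test. Fcgr2b read 2066 and 2132 at day 1, 183.6 at day 7 and 383.3 at day 14, and both late arrays lay far below both day 1 arrays. The merged day 7 and day 14 arrays averaged 283.4 ± 141 against 2099 ± 46.8 at day 1 (n = 2 each), a log2 difference of -2.63 (SE 0.242, 95% confidence interval -3.16 to -2.11, limma adjusted p = 3.9e-06). Over all genes, 4.27% were called lower and 5.52% higher in the longer cultures, and of the 5 measured members 1 was lower and 0 were higher. The LSEC markers moved with it: their sum was 2169 at day 7 and 2440 at day 14, against 10695 to 11714 at day 1. Cdh5 alone read 6552 and 5427 at day 1. The 284 genes higher in LSEC than in each other population moved less, with median shares of 26.0% and 25.2% at day 1, 23.4% at day 7 and 21.9% at day 14. Fcgr2b stood at 2.10% and 4.39% of its LSEC mean on the late arrays, where 279 and 260 of the 284 had a higher share. The sum of 10 hepatocyte markers was also lower, 1282 at day 7 and 1254 at day 14, against 10302 to 17547 at day 1. The part of LSEC or hepatocyte RNA at day 1 in the Fcgr2b difference was not tested. The 10 stellate cell markers summed to 28918 to 29526 at day 1, 33970 at day 7 and 36816 at day 14.

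The merged log2 differences of the other genes were -0.09 for Fcgr1 (adjusted p = 0.51), -0.00 for Fcgr3 (adjusted p = 1.00), 0.09 for Fcgr4 (adjusted p = 0.73) and -0.43 for Fcer1g (95% confidence interval -1.08 to 0.22, adjusted p = 0.28). In the limma fit without the low-value filter the adjusted p was 0.55 for Fcgr1 and 0.83 for Fcgr4. The 2 late arrays were unlike each other in several of the genes other than Fcgr2b. Fcer1g read 1352 and 1622 at day 1, 690.8 at day 7 and 1660 at day 14. With the day 14 array left out, Fcer1g was lower than at day 1 by -1.02 (adjusted p = 0.0051) and would be called, and with the day 7 array left out the difference was 0.16 (adjusted p = 0.66). Fcgr3 read 306.1 and 360.6 at day 1, 242.0 at day 7 and 447.4 at day 14, and Fcgr4 read 117.6 and 142.8, then 100.8, then 194.9. Fcgr1 stayed between 154.6 and 171.9 on all 4 HSC arrays.

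The day 14 array was therefore above the day 7 array in 4 of the 5 genes, by 1.17 on the log2 scale for Fcer1g, 0.81 for Fcgr2b, 0.71 for Fcgr3 and 0.60 for Fcgr4, with -0.02 for Fcgr1. These are single arrays and carry no test. Over 12368 genes the median of the same difference was -0.05, and 2.46% of them were at 0.5 or more. Several macrophage genes were also higher on the day 14 array than on the day 7 array, named after their values were seen. The C1q chain genes C1qa, C1qb and C1qc read 282.1, 825.1 and 521.4 at day 7 and 505.6, 1870 and 1142 at day 14. Tyrobp, which encodes the ITAM adaptor DAP12, read 501.3 at day 7 and 1138 at day 14, and Lilrb4a, an inhibitory leukocyte receptor gene, read 362.1 and 1116. Of the 10 Kupffer markers, 5 were higher at day 14, their sum was 2466 at day 7 and 2600 at day 14, and Vsig4 read 593.2 at day 7 and 404.2 at day 14. Of the 789 genes higher in Kupffer cells than in each other population, 50.6% were higher on the day 14 array than on the day 7 array, compared with 40.9% of all genes tested. The part of macrophage RNA in the late HSC values was not tested.

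Most signalling genes downstream of the activating receptors were higher in Kupffer cells than in LSEC. Of 18 tested genes that act below activating Fc gamma receptors (of 20 listed), 15 were called higher and 0 lower, with a median log2 difference of 2.39 against -0.05 over all genes. Some of them, such as Btk, Was and Card9, averaged below the pooled median in LSEC, day 1 HSC and hepatocytes. So did Clec4a2, Lair1, Cd22 and Fcrl1 of the lists that follow. Such genes passed the low-value filter through their Kupffer arrays, so the counts and medians of the lists are descriptions. Dock2, an activator of the GTPase Rac, averaged 3823 ± 268 in Kupffer cells and 119.1 ± 9.54 in LSEC, a log2 difference of 4.27 (adjusted p = 7.9e-13). The exchange factor gene Vav1 was higher by 4.11, the GTPase gene Rac2 by 4.08, and Syk, the kinase that docks on the gamma chain, by 3.92, with means of 3707 ± 286 in Kupffer cells and 166.8 ± 7.50 in LSEC. Vav3, a relative of Vav1, had a difference of -0.67 and Src one of 0.41, and neither was called. In LSEC compared with hepatocytes 3 of the 18 were higher and 1 was lower, with a median of -0.00, beside 12.5% and 10.0% of all genes. Lcp2, which encodes the adaptor SLP-76, averaged 2440 ± 561 in LSEC and 216.3 ± 29.3 in hepatocytes (log2 difference 3.06, adjusted p = 8.5e-10), Vav3 was higher by 1.95 and Pik3cg by 1.54. Syk averaged 166.8 ± 7.50 in LSEC and 171.6 ± 13.4 in hepatocytes and was not called.

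Of 11 tested genes whose products oppose activating signals, 5 were higher in Kupffer cells than in LSEC and 1 was lower, with a median of 0.88. The list was not limited to genes that act below Fcgr2b. Ptpn6, which encodes the phosphatase SHP-1, was higher by 3.29, and the adaptor genes Dok2 and Dok3 by 2.07 and 1.83. Inpp5d, which encodes the lipid phosphatase SHIP-1 that binds Fcgr2b protein, averaged 3655 ± 168 in Kupffer cells and 1018 ± 95.4 in LSEC, a log2 difference of 1.77 (adjusted p = 1.7e-08). The lower one was Cblb, a ubiquitin ligase gene, at 1109 ± 55.8 in Kupffer cells and 3072 ± 98.9 in LSEC (log2 difference -1.40, adjusted p = 9.3e-07). Csk (0.88) and Dok1 (0.85) were not called. In LSEC compared with hepatocytes Inpp5d was higher by 2.09 (adjusted p = 3.2e-09), Cblb by 1.40 and Inppl1, the gene of the related phosphatase SHIP-2, by 1.04, so that 3 of 11 were higher and 0 lower, with a median of 0.49 against 0.10 over all genes.

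Among 4 tested signalling adaptors and receptor chains other than the gamma chain (of 8 listed), 2 were higher in Kupffer cells than in LSEC. Tyrobp averaged 8666 ± 408 in Kupffer cells and 230.4 ± 38.3 in LSEC (log2 difference 4.81, adjusted p = 8.2e-12), and Cd79b, a B cell receptor gene that is among the B cell markers above, was higher by 2.59. In LSEC compared with hepatocytes 0 of the 4 were called. Tyrobp had means of 230.4 ± 38.3 in LSEC and 197.4 ± 33.5 in hepatocytes (log2 difference 0.16, adjusted p = 0.28), whereas Fcer1g was called there. Of 16 other leukocyte receptors, most of them inhibitory, 14 were higher in Kupffer cells than in LSEC and 1 was lower, with a median of 3.84. Clec12a, a C-type lectin gene, was higher by 4.98, Pilra by 4.87, and the sialic acid receptor genes Siglece and Siglec1 by 4.83 and 4.72. The lower one was Pecam1, an endothelial adhesion gene that also sits in the LSEC marker list, at 1187 ± 125 in Kupffer cells and 5675 ± 499 in LSEC. Cblb and Pecam1 are named because each was the 1 exception in its list.

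**Figure D4:**
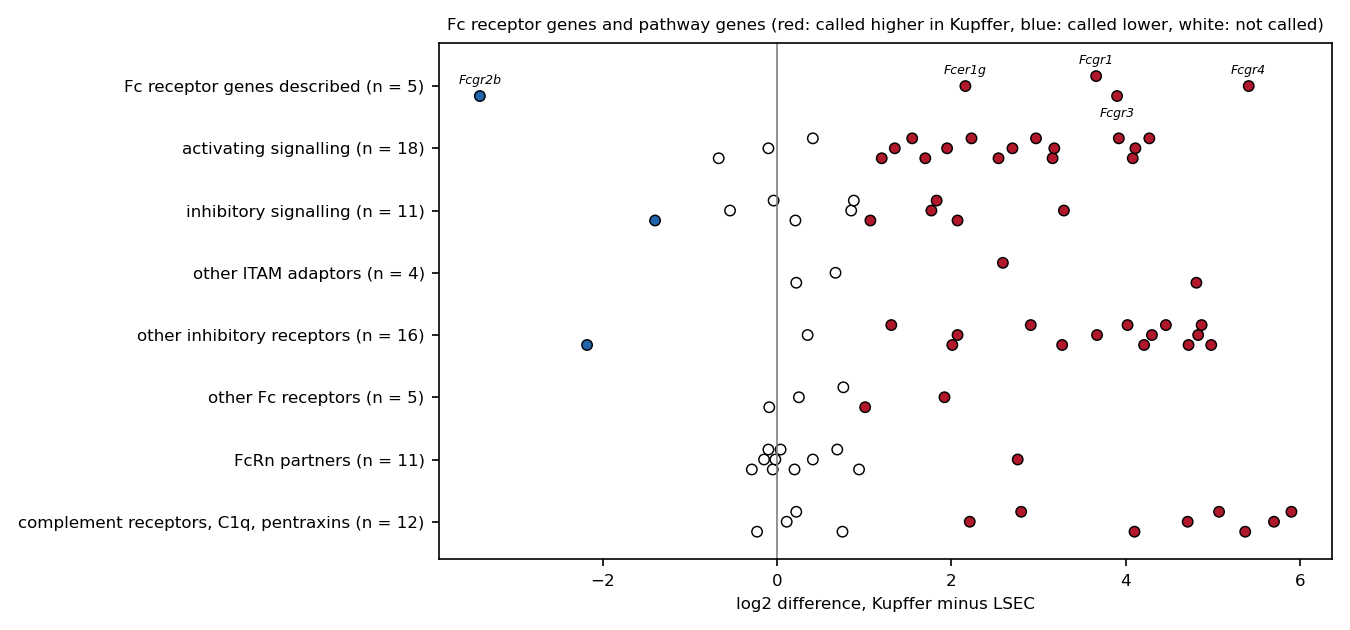
Log2 difference, Kupffer minus LSEC (horizontal axis), of the Fc receptor genes and of 7 lists of related genes (rows), each point a tested gene, red or blue where called. The activating signalling genes lie mostly to the right, with 15 of 18 called higher in Kupffer cells, while Fcgr2b lies at -3.41.

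The remaining lists cover other antibody receptors, the partners of FcRn and the complement system. Of 5 tested other Fc receptor genes (of 12 listed), 2 were higher in Kupffer cells than in LSEC: Fcrl1, a B cell Fc receptor-like gene, by 1.92, and Trim21, the cytosolic antibody receptor gene, by 1.01, a call that was lost without Kupffer replicate 2 (0.92) or LSEC replicate 3 (0.94). Fcmr, the immunoglobulin M receptor gene, had a difference of 0.76 and was not called. Pigr, which encodes the receptor that carries polymeric immunoglobulin A into bile in rodents, averaged 116.3 ± 13.3 in LSEC and 5584 ± 1073 in hepatocytes (log2 difference -4.82, adjusted p = 1.5e-11). Of 11 tested FcRn partners 1 was higher in Kupffer cells than in LSEC, near the 9.54% of all genes. It was the albumin gene Alb, by 2.76, at 2231 ± 1175 in Kupffer cells and 227.9 ± 54.0 in LSEC. The 10 hepatocyte markers, Alb among them, summed to 2458 to 5949 on Kupffer arrays and 1345 to 1532 on LSEC arrays, and their part in the Alb difference was not tested. B2m, which encodes the FcRn light chain, averaged 12090 ± 672 in Kupffer cells, 12545 ± 603 in LSEC, 12517 ± 221 in HSC at day 1 and 12578 ± 351 in hepatocytes, differences within the spread of the arrays. Of 12 tested complement receptor, C1q and pentraxin genes 8 were higher in Kupffer cells than in LSEC, with a median of 3.45, led by Vsig4, a complement receptor gene and Kupffer marker, by 5.90, C1qc by 5.70, C1qa by 5.37 and C1qb by 5.07.

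In the longer HSC cultures at most 1 gene of each list was called. Over all genes 4.27% were called lower and 5.52% higher, so counts this small do not set these lists apart. Lcp2 averaged 308.8 ± 56.2 in the merged day 7 and day 14 arrays and 855.8 ± 79.5 at day 1 (log2 difference -1.27, adjusted p = 7.8e-05), the 1 lower gene of 18 below activating receptors. Inppl1 was the 1 higher gene of the 11 that oppose activating signals, by 1.07, a call lost without day 1 HSC replicate 2 (0.98). Inpp5d had a difference of -0.91 and was not called, but would be without the day 14 array (-1.12) or without day 1 HSC replicate 1 (-1.01). Pecam1, the 1 lower gene of 16 other leukocyte receptors, was lower by -2.35. Alb, the 1 lower gene of 11 FcRn partners, averaged 113.5 ± 1.03 in the merged late arrays and 7570 ± 1817 at day 1. Its log2 difference was -5.26 (limma adjusted p = 4.1e-07), and the part of hepatocyte RNA at day 1 in it was not tested. Tyrobp averaged 819.8 ± 450 in the longer cultures and 793.8 ± 171 at day 1, with 501.3 at day 7 and 1138 at day 14. C3ar1, a complement receptor gene, was the 1 lower gene of 12 in its list, by -1.15, a call lost without the day 7 array (-0.64, adjusted p = 0.053), without day 1 HSC replicate 2 (-0.98) and in a fit of the 4 HSC arrays alone (-1.15, adjusted p = 0.052).

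Over the 13 arrays the members formed a Kupffer set and a separate gene. Fcgr1, Fcgr3 and Fcgr4 correlated with each other at Pearson r = 0.984 to 0.995, Fcer1g correlated with these at 0.823 to 0.849, and Fcgr2b at -0.274 to -0.212, with 0.257 for Fcgr2b and Fcer1g. These are descriptions over arrays that fall into 6 groups and share their libraries, so each value mostly reflects the group means. Among 12368 genes the closest in pattern to Fcgr2b were Gimap6 (0.980), Cyp4b1 (0.977), Sox17 (0.974), Plxnc1 (0.973) and Robo4 (0.973). The closest to Fcgr1 were Itgal, Gm5150, Wdfy4, Slc28a2 and Gfra2 (0.998 to 0.999), and the closest to Fcgr4 were Gpr65, Siglec1, Lair1, Pilrb2 and Cd48 (0.997 to 0.998). Fcgr3 stood closest to Csf1r (0.996), Alox5ap, C1qc, Myo1f and Cyth4 (0.995 each). Fcer1g stood closest to Sirpa (0.993), which averaged 7701 in Kupffer cells, 1856 in LSEC, 1483 in HSC at day 1 and 360.2 in hepatocytes, and then to Slc30a7, Trps1, Gripap1 and Myo7a (0.978 to 0.985).

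Fcgr2b, Fcgr4, Fcgr3 and Fcer1g lie near each other on chromosome 1 in the RefSeq order of protein-coding genes, within a run of 11 genes. Fcgr1 lies on chromosome 3. The opposite patterns of Fcgr2b and Fcgr4 are those of immediate neighbours in this order. Of the 7 other genes in the run, 6 had a probe set and 5 of these were tested. None was higher in Kupffer cells or in LSEC than in each other population, and 1 was higher in hepatocytes, as were 6.80% of all genes tested. This was Apoa2, an apolipoprotein gene and direct neighbour of Fcer1g, at 13844 in hepatocytes, 350.3 in Kupffer cells and 290.1 in LSEC. Sdhc, a subunit gene of the respiratory chain between Fcgr3 and Fcer1g, averaged 2503 in Kupffer cells, 2473 in LSEC and 3476 in hepatocytes. Outside the run, past Fcer1g, Adamts4 was higher in LSEC than in each other population, as were 2.35% of all genes tested. It averaged 840.7 ± 317 in LSEC and 153.1 ± 13.9 in Kupffer cells.

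**Figure D5:**
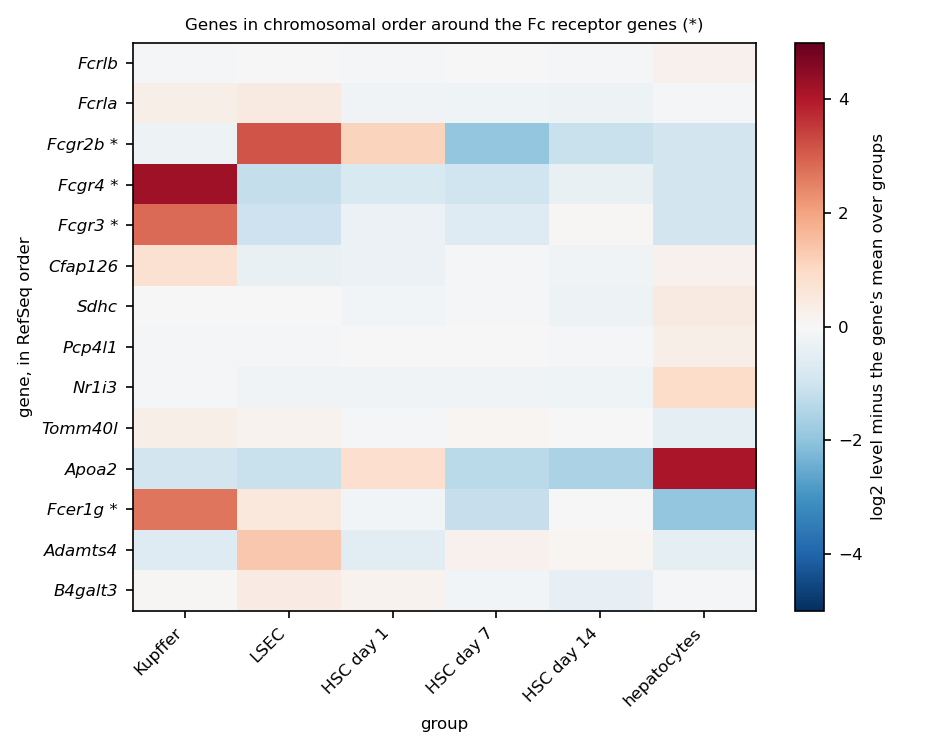
Mean log2 level of each gene with a probe set in chromosomal order (rows; Fc receptor genes starred) in each group (columns), centred on the gene's mean over groups. Fcgr2b is high in LSEC (8734), Fcgr4 and Fcgr3 in Kupffer cells (6674 and 3546), and Apoa2, beside Fcer1g, in hepatocytes (13844).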

How the data were processed

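Intensities of 25194 probe sets on 13 Affymetrix mouse arrays were used as deposited by the authors, on a linear scale from 10.6 to 28854. Per the submitters' processing notes, Affymetrix Expression Console and MAS5 version 5.0 were used, with no role or order stated. Background correction, normalization and genome build are not given in the sources used here. Probe sets carried 1 symbol (21181), several (1379) or none (2634), and only the first were used. Of these, 21097 matched RefSeq (GRCm38.p6) by Entrez identifier. Each gene took its probe set with the highest mean, and genes above the pooled median in at least 2 arrays were kept. Log2(intensity + 82.7, the pooled 20th percentile) was fitted with limma 3.58.1 in R 4.3.3: 11 arrays in 4 groups for the populations, and 13 arrays with day 7 and day 14 merged for culture, with Benjamini-Hochberg adjustment over all genes within a comparison. Culture p-values thus rest on the spread of all groups, with the 2 late times treated as replicates. The script was tested on simulated data.

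The genes, lists, markers and motifs were chosen with earlier results of these data known. From each list, up to 4 called genes and up to 2 not called are named in order of absolute difference in the comparison described, and for each member the 5 genes with the highest Pearson r. Exceptions are named as such. Alternatives were other pseudocounts, no filter, quantile normalization, other probe-set rules, other fits, a replicate block and leaving out each array. Deviations from the group means correlated at r from -0.111 to 0.11 in 15 same-number array pairs and from -0.125 to 0.131 in 30 other pairs. The samples were not treated as paired, and these values cannot tell whether same-number arrays share an animal. The number of arrays limits the precision.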

Additional observations from a re-analysis of the deposited data

How the results depend on the processing

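Every call of a measured Fc receptor gene between populations kept its direction and its side of the threshold under the alternatives run. Leaving out 1 array at a time gave 4 genes higher and 1 lower for Kupffer cells against LSEC each time. The exceptions concern genes near the threshold. With no pseudocount, LSEC were lower than day 1 HSC in 1 gene, Fcgr3 (-1.05), in place of 0. In culture, 2 members in place of 1 were lower with day 7 alone or without the day 14 array, the second being Fcer1g (-1.02), so leaving out 1 array gave 1 to 2. Directions turned for values that were not called. Fcgr3 in LSEC minus hepatocytes was 0.05 without hepatocyte replicate 3 and -0.23 without replicate 2. Fcgr3 in culture was 0.01 with the pooled median as pseudocount, 0.03 after quantile normalization, 0.09 without day 1 HSC replicate 2 and 0.35 with day 14 alone or without the day 7 array, and -0.35 without the day 14 array. Fcgr4 in culture was -0.21 with day 7 alone or without the day 14 array and 0.39 without the day 7 array, and Fcer1g was 0.16 with day 14 alone or without the day 7 array. The cause was not tested, beyond the fewer arrays of these settings. The differences of the Fcgr2b ratios between LSEC and Kupffer cells ranged from 6.98 to 7.13 (Fcgr1), 7.18 to 7.47 (Fcgr3), 8.63 to 8.92 (Fcgr4) and 5.44 to 5.68 (Fcer1g) over single arrays left out, alternatives chosen after seeing the data. Counts of genes called ranged from 2350 to 2430 for Kupffer cells against LSEC and from 1095 to 1282 in culture when arrays were left out. With the replicate number as a block, 2395 genes were called for Kupffer cells against LSEC, with 4 members higher and 1 lower, and the block changed no call of a member. Among the genes named from lists, Inppl1 in LSEC minus hepatocytes was not called with quantile normalization (0.86), the pooled median as pseudocount (0.90), or without LSEC replicate 2 (0.94) or hepatocyte replicate 1 (1.00, just below the threshold). Src, the 1 lower gene there among those below activating receptors, was not called with the pooled median as pseudocount (-0.84) or without hepatocyte replicate 1, where its size was just under the threshold. In culture, Inppl1 was not called with the pooled median as pseudocount (0.97), and Inpp5d was called with no pseudocount (-1.14) or day 7 alone (-1.12). In Kupffer cells minus LSEC, Trim21 was not called with the pooled median as pseudocount (0.79), and Dok1 (1.11) and Fcmr (1.09) were called with no pseudocount. Without detection calls, intensities near the low end give no lower bound on a level.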
